A study of Mus musculus with 6 samples.

Results

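Scavenger receptors are cell-surface proteins that bind modified lipoproteins, microbial surfaces and dying cells and carry them into the cell. They are grouped into lettered classes by structure, and macrophages and sinusoidal endothelial cells are the cells best known for them. In macrophages that clear apoptotic cells, several of them take part in recognition and uptake, and uptake of lipid by class A and class B receptors is a known feature of foam cells.

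The 10 genes described here are Msr1, Marco, Cd36, Scarb1, Scarf1, Stab1, Stab2, Colec12, Olr1 and Cd93. They were taken as a list of gene names, and for each the probe sets were used whose platform annotation names that gene alone. All 10 were found, each with 1 probe set, among 21789 probe sets that name 1 gene each (of 28944 in all) and represent 19938 genes. SS-TAMs (starry-sky tumor-associated macrophages) were captured by laser from BL2 tumors of 1.44 cm2 in female BALB/c SCID mice of 6 to 12 weeks, which lack mature T and B cells. BL2 is a single human Burkitt's lymphoma cell line, injected under the skin, and the macrophages were found by staining for CD68. GCMs (germinal center macrophages) were captured from germinal centers of female BALB/c mice of the same age that carry a CSF1R EGFP transgene, a fluorescent reporter of the macrophage growth factor receptor gene, and had received 2 doses of sheep red blood cells. Each group has 3 arrays from 3 mice, with 1000 captured cells per mouse, and the labels of the GCM mice disagree on the organ, with spleen given as tissue and lymph nodes as source.

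Median intensity was 6.1 to 6.5 on every array, and an intensity near or below this is called dim here. The bright end differed between the groups, with a 99th percentile of 242 to 284 on SS-TAM arrays, against 614 to 664 on GCM arrays. Macrophage transcripts were present in both groups and higher in SS-TAMs, since 16 of 22 core macrophage markers were called higher and none lower (limma, 18 and 0 at an unadjusted p under 0.05), with Cd68 itself among them. Their summed intensity was 3682 to 4723 on SS-TAM arrays, against 1482 to 1801 on GCM arrays. Of 10 T cell markers 6 were called lower and none higher, with sums of 105 to 138 on SS-TAM arrays, against 1056.5 to 1414.5 on GCM arrays. Of 11 B cell markers 2 were called lower and none higher, with sums of 107 to 121 on SS-TAM arrays, against 179 to 450.5 on GCM arrays. The SCID hosts of the SS-TAMs lack mature T and B cells, as given above. From such bulk captures alone, fewer cells of a type and less RNA per cell cannot be told apart.

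Of the 10 receptors, 4 passed the test for a difference between the groups. Msr1, Cd36 and Cd93 were many times higher in SS-TAMs, and Scarf1 was higher by a smaller step. Colec12 was also higher on every SS-TAM array, by a larger step than Scarf1, but did not pass the test. Stab1, Stab2, Scarb1, Olr1 and Marco were measured at similar levels in both groups. In all, limma called 4 of 10 higher and 0 of 10 lower in SS-TAMs (adjusted p under 0.05, and 5 and 0 at an unadjusted p under 0.05). Among all 19938 genes 5.15% were called higher and 4.76% lower, which is 1027 and 950 genes, or 745 and 1172 after each array was centred on its median. The SS-TAM arrays lay wholly above the GCM arrays for 5 of 10 receptors, compared with 18.5% of all genes. The median log2 fold change was 0.40 over the 10 genes and 0.041 over all genes. With 1 array left out, the count was 1 without SS-TAM replicate 3, GCM replicate 2 or GCM replicate 3, 2 without GCM replicate 1, 3 without SS-TAM replicate 1, and 4 without SS-TAM replicate 2, where Colec12 was called and Scarf1 was not. Msr1, Cd36 and Cd93, like Lrp1, Mrc1, Gas6, Pparg and Hmox1 further on, are among the genes that the study selected from these same arrays, so their direction is not independent evidence.

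**Figure D1:**
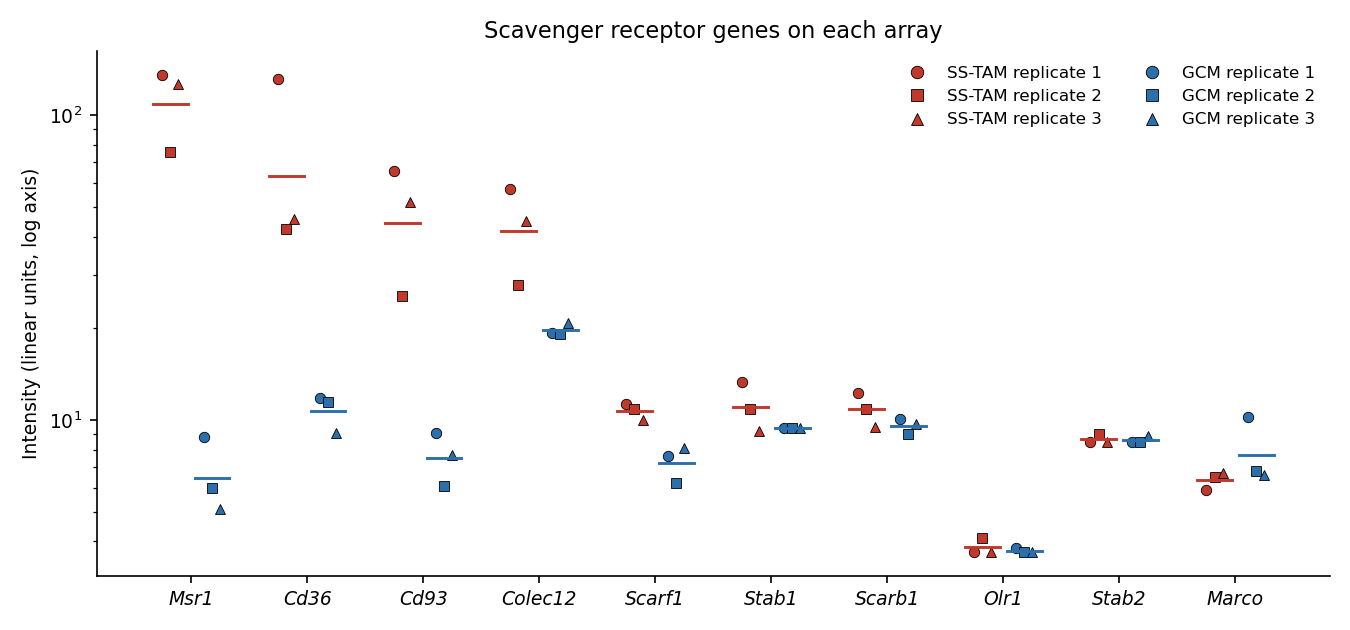
Intensity in linear units (log axis) of the 10 scavenger receptor genes on each array. Points are arrays (SS-TAM red, left, and GCM blue, right, 3 each, with 1 symbol per replicate number) and bars are geometric means. Msr1, Cd36, Cd93, Colec12 and Scarf1 have all SS-TAM arrays above all GCM arrays, whereas the groups overlap for the other 5 genes.

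Class A receptors are trimers with a collagen-like stalk. Msr1 encodes the macrophage scavenger receptor CD204, which binds acetylated and oxidized lipoproteins and apoptotic cells. Its intensity was 135.8, 75.6 and 126.2 on the SS-TAM arrays of replicates 1, 2 and 3, against 8.8, 6 and 5.1 on the GCM arrays. The lowest SS-TAM array was thus far above the highest GCM array, and 2 of 3 GCM arrays were at or below the array median. Mean Msr1 intensity was 113 ± 32.3 for SS-TAMs, against 6.63 ± 1.93 for GCMs (SD, 3 arrays each). The ratio of geometric means was 16.9 (log2 fold change 4.08, 95% confidence interval 3.35 to 4.80, adjusted p = 0.0016 from limma), which placed Msr1 at rank 5 of all genes by log2 fold change. The GCM level is dim, so the size of this ratio is uncertain beyond its interval. Msr1 kept its call without any 1 of the 6 arrays, with log2 fold changes of 3.91 to 4.34.

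Colec12 encodes a class A receptor that ends in a C-type lectin domain and is known from endothelial and stromal cells as well as myeloid cells. It was at 57.4, 27.8 and 45 in SS-TAMs, against 19.3, 19.2 and 20.8 in GCMs. The groups did not overlap, and SS-TAM replicate 2 was nearest to the GCM arrays. Mean Colec12 intensity was 43.4 ± 14.9 for SS-TAMs, against 19.8 ± 0.90 for GCMs (SD, 3 arrays each). The log2 fold change of 1.07 (95% confidence interval 0.44 to 1.71) missed the threshold (adjusted p = 0.058 from limma). It passed without SS-TAM replicate 2 (1.36, adjusted p = 0.013), after quantile normalization (1.25, adjusted p = 0.029), with array weights (1.07, adjusted p = 0.035) and when dim probe sets were left out (adjusted p = 0.033).

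Marco, the third class A gene, encodes a receptor for bacteria that marks marginal zone macrophages of the mouse spleen. It was at 5.9, 6.5 and 6.7 in SS-TAMs, against 10.2, 6.8 and 6.6 in GCMs. All values were dim except that of GCM replicate 1. The log2 fold change was -0.28 (95% confidence interval -0.72 to 0.16, adjusted p = 0.37 from limma), the lowest of the 10 genes. Of 7 markers of marginal zone and red pulp macrophages of the spleen, Spic, Vcam1, Hmox1 and Slc40a1 were called higher in SS-TAMs and none lower. The SIGN-R1 gene Cd209b, another marginal zone macrophage marker, was also highest on the array of GCM replicate 1, at 4.5, 5.3 and 5 in SS-TAMs and 9.9, 4.4 and 4.5 in GCMs. The rest of that list was mixed among the GCM arrays. Siglec1, Hmox1 and Cd163 were highest on replicate 1, and Spic lay between the others. Vcam1 (116.1, 125.4 and 167.3) and Slc40a1 (6.1, 6.7 and 7.2) were lowest there. The summed B cell markers were at 450.5 on the array of GCM replicate 1, compared with 179 and 185 on the other GCM arrays. Whether other cells of the spleen contribute to the Marco value there was not tested.

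Class B receptors span the membrane at both ends and move lipid. Cd36 encodes a receptor for oxidized lipoproteins, thrombospondin and long-chain fatty acids. Its intensity was 131.1, 42.3 and 45.8 in SS-TAMs, against 11.8, 11.5 and 9.1 in GCMs. SS-TAM replicate 1 stood well above the other SS-TAM arrays, which in turn lay clearly above every GCM array. Mean Cd36 intensity was 73.1 ± 50.3 for SS-TAMs, against 10.8 ± 1.48 for GCMs (SD, 3 arrays each). The ratio of geometric means was 5.90 (log2 fold change 2.56, 95% confidence interval 1.47 to 3.66, adjusted p = 0.023 from limma). Without SS-TAM replicate 1 it was 2.04 on the log2 scale and still called. The call was lost without SS-TAM replicate 3 (adjusted p = 0.054) and without GCM replicate 1, 2 or 3 (adjusted p = 0.077, 0.093 and 0.095), where the log2 fold change stayed between 2.44 and 2.80.

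Scarb1, the other class B gene, encodes the receptor for high-density lipoprotein. It was at 12.3, 10.9 and 9.5 in SS-TAMs, against 10.1, 9 and 9.7 in GCMs, so the groups overlapped. Its log2 fold change was 0.18 (95% confidence interval -0.088 to 0.44, adjusted p = 0.35 from limma). The interval of Scarb1 thus ends below the lower bound of Cd36.

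Of the 10 genes, 5 have an entry in the RefSeq promoter table of GRCm38.p6, namely Marco, Cd36, Olr1, Stab1 and Stab2. The windows of Cd36, which was called higher, and Marco, which had the lowest log2 fold change, are shown, from 250 bases before to 50 bases after the annotated start. Capitals mark matches, on either strand, to GAGGAA (the core bound by the myeloid factor PU.1) or to AGGTCA (a nuclear receptor half-site). TATAAA and the AP-1 element TGANTCA were also searched, and no motif overlapped another in these windows. Cd36 is given at chr5:17835847-17836146 and Marco at chr1:120504975-120505274, both from the minus strand and written 5′ to 3′.
Cd36: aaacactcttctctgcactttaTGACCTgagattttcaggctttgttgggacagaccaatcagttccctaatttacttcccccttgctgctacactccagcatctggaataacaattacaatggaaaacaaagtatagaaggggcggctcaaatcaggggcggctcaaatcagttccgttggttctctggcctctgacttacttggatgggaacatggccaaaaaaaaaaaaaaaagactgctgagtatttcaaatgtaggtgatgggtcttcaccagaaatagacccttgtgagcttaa
Marco: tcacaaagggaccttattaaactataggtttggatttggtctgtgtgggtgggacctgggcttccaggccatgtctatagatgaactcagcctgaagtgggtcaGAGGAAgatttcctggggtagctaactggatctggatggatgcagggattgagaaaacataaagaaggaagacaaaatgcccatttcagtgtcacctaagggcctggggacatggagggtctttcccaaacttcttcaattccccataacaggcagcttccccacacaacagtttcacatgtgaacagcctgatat
The Cd36 window held 1 AGGTCA, on the opposite strand with its first printed base at -228, and the Marco window held 1 GAGGAA at -146. Of 32851 promoters in the table, 16.3% hold AGGTCA and 28.3% hold GAGGAA, so both matches are common. TATAAA (13.6% of promoters) and TGANTCA (7.81%) were in neither the Cd36 nor the Marco window. Of the windows not shown, those of Olr1 and Stab2 also held AGGTCA, and those of Olr1 and Stab1 held GAGGAA. None of these genes was called, so AGGTCA was not particular to Cd36.

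Cd93 encodes a transmembrane glycoprotein with a C-type lectin-like domain, found on myeloid and endothelial cells and linked to removal of apoptotic cells. Its intensity was 65.8, 25.6 and 51.9 in SS-TAMs, against 9.1, 6.1 and 7.7 in GCMs. The groups were well apart, with SS-TAM replicate 2 lowest in its group. Mean Cd93 intensity was 47.8 ± 20.4 for SS-TAMs, against 7.63 ± 1.50 for GCMs (SD, 3 arrays each). The ratio of geometric means was 5.89 (log2 fold change 2.56, 95% confidence interval 1.66 to 3.46, adjusted p = 0.013 from limma), nearly the same as that of Cd36. Of the GCM arrays, 1 was at or below the array median. The call was lost without SS-TAM replicate 3, GCM replicate 2 or GCM replicate 3 (adjusted p = 0.055, 0.067 and 0.060).

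Scarf1 encodes the class F receptor SREC-I, first described in endothelial cells and also known for uptake of apoptotic cells. It was at 11.3, 10.9 and 10 in SS-TAMs, against 7.6, 6.2 and 8.1 in GCMs, where the array medians were 6.1 to 6.2. The arrays did not overlap, but the step was small (log2 fold change 0.56, 95% confidence interval 0.28 to 0.85, adjusted p = 0.036 from limma). In limma fits Scarf1 lost its call without any 1 of the 6 arrays (adjusted p = 0.064 to 0.0997), with array weights (adjusted p = 0.12) and with a replicate block (adjusted p = 0.083), and its sign turned relative to the macrophage markers (-0.98).

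Stab1 and Stab2 encode the class H receptors stabilin-1 and stabilin-2, large proteins of sinusoidal endothelium. Stabilin-1 is also made by some macrophages, and stabilin-2 takes up hyaluronan. Stab1 was at 13.3, 10.9 and 9.2 in SS-TAMs, against 9.4 on each GCM array. SS-TAM replicate 3 lay below the GCM level, so the groups overlapped (log2 fold change 0.23, 95% confidence interval -0.10 to 0.56, adjusted p = 0.33 from limma). Of 6237 genes with a mean intensity above 9, 194 had, like Stab1, the same rounded value on all 3 GCM arrays. Stab2 was at 8.5, 9 and 8.5 in SS-TAMs, against 8.5, 8.5 and 8.9 in GCMs. Its log2 fold change was 0.0054 with a 95% confidence interval of -0.13 to 0.14 (adjusted p = 0.96 from limma).

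Olr1 encodes the class E receptor LOX-1, a lectin-like receptor for oxidized low-density lipoprotein. It was dim on every array, at 3.7, 4.1 and 3.7 in SS-TAMs and 3.8, 3.7 and 3.7 in GCMs. No difference was detectable at these levels (log2 fold change 0.037, 95% confidence interval -0.12 to 0.19, adjusted p = 0.74 from limma).

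**Figure D2:**
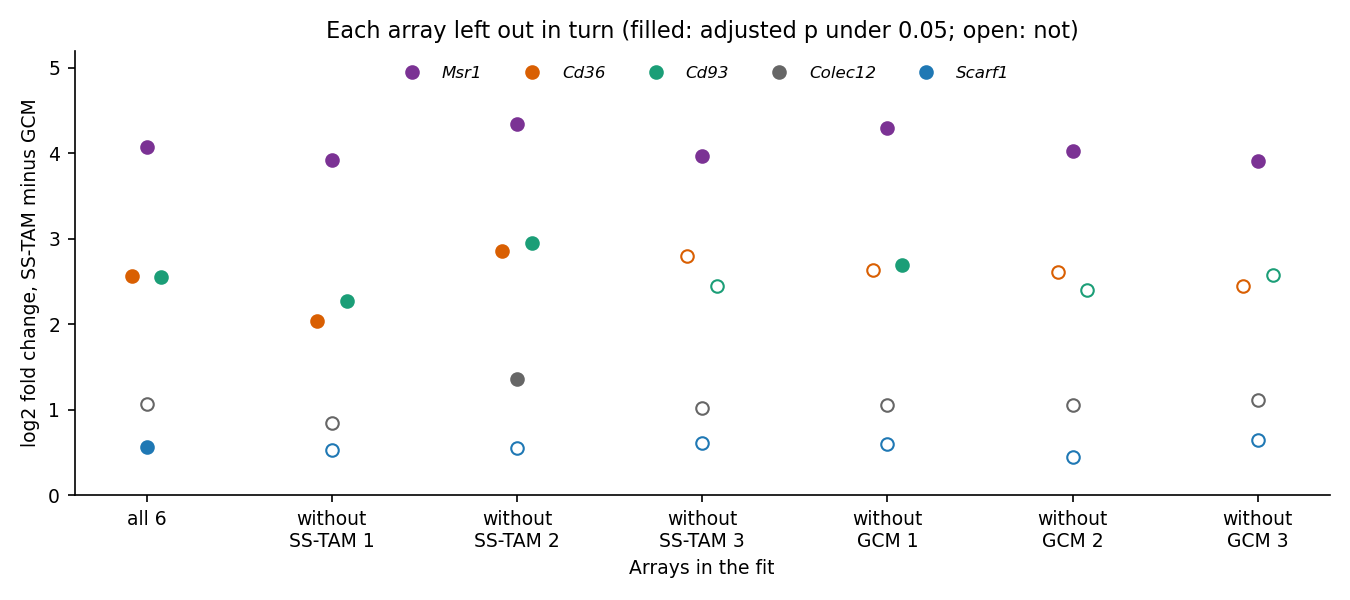
Difference in log2 intensity (SS-TAMs over GCMs) for the 5 genes whose groups did not overlap, with all 6 arrays and with each array left out in turn. Filled points have an adjusted p under 0.05 and open points do not. Msr1 is called in every fit and stays between 3.91 and 4.34, whereas Scarf1 is called only with all 6 arrays.

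The SS-TAM arrays differed among themselves most for the 4 genes with the largest log2 fold changes. The highest SS-TAM array was 3.10 times the lowest for Cd36, 2.57 times for Cd93, 2.06 times for Colec12 and 1.80 times for Msr1. For these 4 genes replicate 1 was the highest and replicate 2 the lowest SS-TAM array. Scarf1, by comparison, varied only 1.13-fold. The core macrophage markers also had their lowest sum on SS-TAM replicate 2, at 3682 compared with 4720 and 4723 on replicates 1 and 3. Fibroblast and pericyte markers summed to 829, 418 and 467 on the SS-TAM arrays, in replicate order, against 400, 366 and 421 on GCM arrays. Of 14, 4 (Postn, Mfap5, Col1a2 and Pdgfrb) were called higher and none lower (limma, 8 and 0 at an unadjusted p under 0.05). The SS-TAM arrays lay wholly above the GCM arrays for 9 of 14 (18.5% of all genes) and wholly below for 1. The median log2 fold change was 0.86. The sums include Dcn and Thy1, which were bright in both groups and not called. The part of fibroblast RNA in the values of the SS-TAM arrays was not tested.

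Several of the 10 genes are known from endothelial cells as well as macrophages, so endothelial markers were measured beside them. Their summed intensity was 119.4 to 120.5 on SS-TAM arrays, against 113 to 132 on GCM arrays. Of 15 endothelial markers, Robo4 was called higher (log2 fold change 0.27) and none was called lower (limma, 1 and 1 at an unadjusted p under 0.05), and 6 of 15 were at or below the array median on all SS-TAM arrays, as were 6 of 15 on all GCM arrays. Pecam1 was at 16.6, 15.3 and 13.5 in SS-TAMs and 30.7, 21.1 and 21.1 in GCMs. As a list, the endothelial markers were thus near the median of all genes, with a median log2 fold change of 0.074. Cd36 is also abundant in fat cells and platelets. Among adipocyte markers, the lipid-binding protein gene Fabp4, which macrophages also express, was at 116, 122.6 and 114.8 in SS-TAMs, against 28.3, 20 and 19 in GCMs. The adiponectin gene Adipoq was at 28.7, 9.9 and 9.1 in SS-TAMs and 17.9, 8.3 and 9.1 in GCMs. Fabp4 and Cidec were called higher of 6 adipocyte markers, and the platelet factor gene Pf4 of 5 platelet markers (log2 fold change 1.49). Platelet markers summed to 49.5 to 53.5 on SS-TAM arrays, against 35 to 36.8 on GCM arrays. Much of this came from Pf4, at 13.5, 14 and 12.3 in SS-TAMs, against 5, 5 and 4.2 in GCMs. The groups overlapped for Ppbp, Itga2b and Gp9, and Treml1 did not overlap but was not called. The share of Cd36 signal from fat cells or platelets was not tested.

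Because the macrophage markers as a whole were higher in SS-TAMs, each gene was also set against them on its own array, as its log2 intensity minus the mean log2 intensity of the 22 core markers. This scale moved the log2 fold change of every gene by -1.54, which put the median of all genes at -1.50, and changes are read relative to that median. The SS-TAM arrays remained above every GCM array for Msr1, Cd36 and Cd93. Msr1 was at 0.32, -0.16 and 0.31 in SS-TAMs, against -2.01, -2.31 and -2.81 in GCMs, a difference of 2.53 (95% confidence interval 2.14 to 2.93). On this scale limma gave every gene an interval of the same width, from 1 shared spread. Cd36 differed by 1.02 and Cd93 by 1.01 (95% confidence intervals 0.63 to 1.41 and 0.62 to 1.41). Cd36 was at 0.27, -0.996 and -1.16 in SS-TAMs, against -1.59, -1.37 and -1.98 in GCMs. SS-TAM replicate 1 thus stood well above the other SS-TAM arrays, and SS-TAM replicate 3 lay close to GCM replicate 2. Cd93 was at -0.72, -1.72 and -0.98 in SS-TAMs, against -1.96, -2.28 and -2.22 in GCMs. An interval from the shared spread does not reflect such scatter of a single gene. Colec12, called in neither direction before scaling, was at -0.92, -1.60 and -1.18 in SS-TAMs, against -0.88, -0.63 and -0.79 in GCMs, a difference of -0.47. Scarf1 turned to -0.98. Stab1, Scarb1, Stab2, Olr1 and Marco lay between -1.32 and -1.82, near the median of all genes. On this scale 102 of 19938 genes were called higher and 19673 lower, so a lower call there says little about a gene. Colec12 and Scarf1 lay above the median of all genes, but of the 10 only Msr1, Cd36 and Cd93 rose by more than the mean of the macrophage markers. Before scaling, the 22 markers themselves ranged in log2 fold change from -0.094 (Aif1) to 4.07 (Adgre1), with a median of 1.45. Adgre1 thus rose about as much as Msr1 (4.08), and C1qb (2.57) about as much as Cd36 and Cd93 (2.56 each). Cd36 and Cd93 therefore lay within the range of the single markers, and Msr1 lay just above its upper end.

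**Figure D3:**
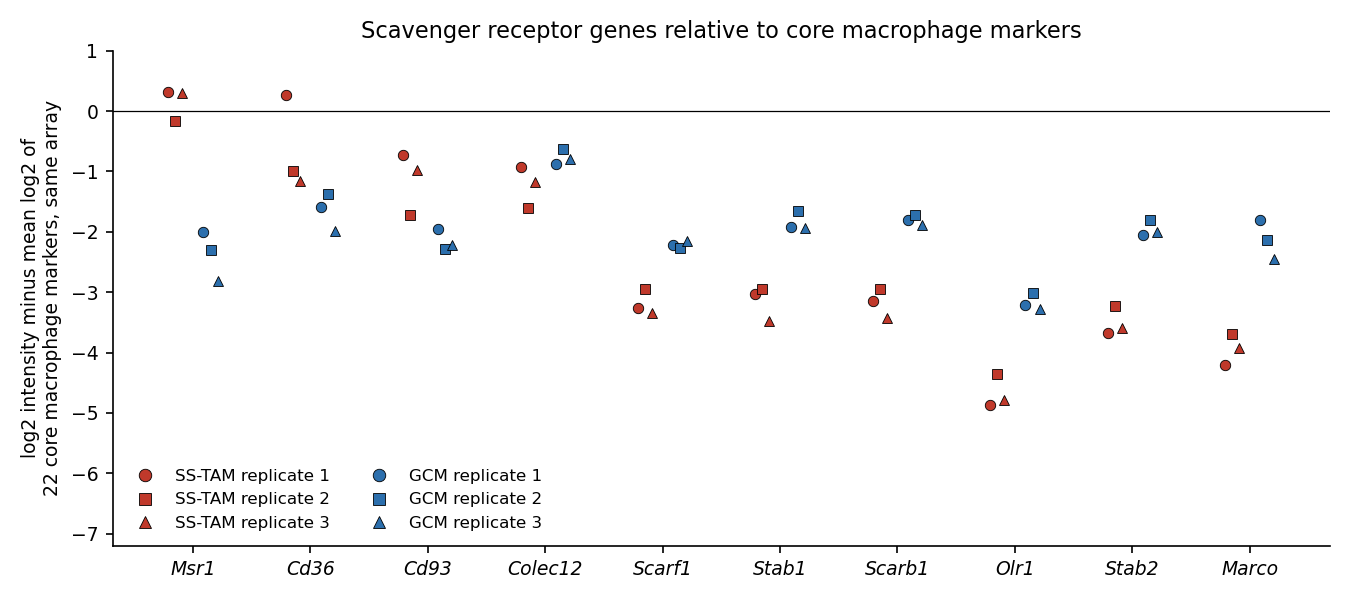
Log2 intensity of each of the 10 genes minus the mean log2 intensity of 22 core macrophage markers on the same array (points are arrays, SS-TAM red and GCM blue). SS-TAM arrays lie above GCM arrays for Msr1, Cd36 and Cd93, and below them for the other 7 genes, on a scale where the median log2 fold change of all genes is -1.50.

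Beyond the 10 genes, 19 further genes of the scavenger receptor nomenclature were measured. Of these, 3 were called higher in SS-TAMs and 0 lower (limma, 6 and 0 at an unadjusted p under 0.05), and their median log2 fold change was 0.22. They were the mannose receptor gene Mrc1 of class E, the endocytic receptor gene Lrp1 of class L and the class D gene Cd68, whose protein was used to choose the SS-TAMs. Lrp1 was at 131, 89 and 94.2 in SS-TAMs, against 12.6, 11.8 and 12.4 in GCMs, and its log2 fold change of 3.07 was close to that of Cd68 (3.06). Mrc1 was at 336, 218.6 and 198.3 in SS-TAMs, against a dim 6.9, 5.8 and 6.5 in GCMs (log2 fold change 5.26). Scarb2, the lysosomal class B relative of Cd36, was at 75.7, 40.7 and 54.4 in SS-TAMs, against 25.2, 32.6 and 36.6 in GCMs. The groups did not overlap, but Scarb2 did not pass (log2 fold change 0.83, adjusted p = 0.11 from limma). The hemoglobin receptor gene Cd163 was dim on 2 of 3 SS-TAM arrays and on all GCM arrays (log2 fold change 0.32, adjusted p = 0.35 from limma). Scara3, Megf10, Dmbt1 and Lrp2 had log2 fold changes of -0.030 to 0.021, all at dim levels.

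**Figure D4:**
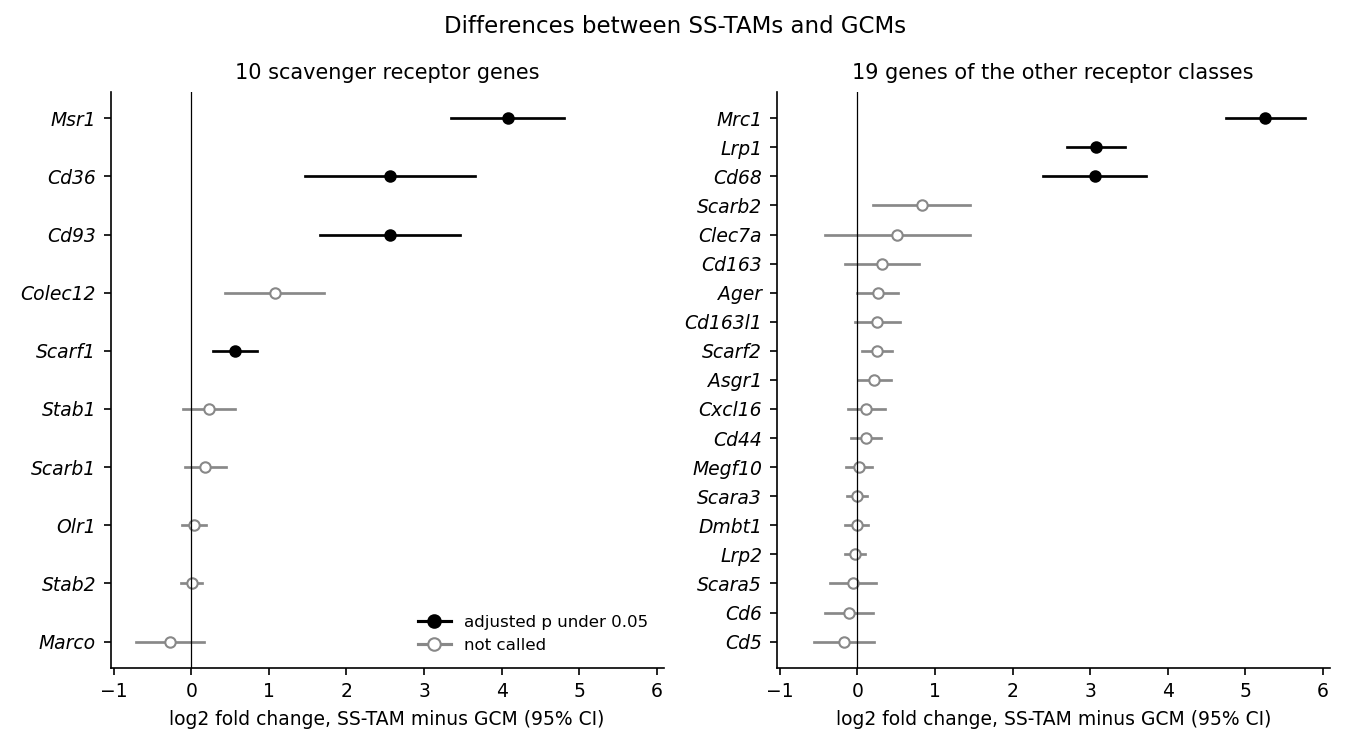
Difference in log2 intensity (SS-TAMs over GCMs) with 95% confidence intervals from limma, for the 10 scavenger receptor genes (left) and 19 further scavenger receptor genes (right). Black points passed an adjusted p of 0.05 and grey open points did not. Msr1, Cd36 and Cd93 on the left and Mrc1, Lrp1 and Cd68 on the right stand apart from the rest, most of which lie within 1 of 0.

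Ligands, adaptors, co-receptors and regulators of these receptors were taken as a further list, of which 15 of 16 genes were measured. In this list 4 were called higher and 0 lower (limma, 7 and 0 at an unadjusted p under 0.05), with a median log2 fold change of 0.42. Sparc, whose product is a matrix ligand of stabilin-1, had a log2 fold change of 2.47. The co-receptor genes Tlr4 and Tlr2, which act with CD36 on oxidized lipids and bacterial lipids, had log2 fold changes of 2.09 and 1.09. Pparg, the nuclear receptor gene known to drive Cd36 transcription, was at 17.8, 19.4 and 36.6 in SS-TAMs, against 6, 5.2 and 5.9 in GCMs. The groups did not overlap, and all 3 GCM arrays were at or below the array median (log2 fold change 2.03). Tlr6, the third co-receptor gene, was dim on all arrays, with 5.1, 4.2 and 4.8 in SS-TAMs, against 4.7, 4.2 and 4.7 in GCMs. The thrombospondin gene Thbs1, which encodes a CD36 ligand, was at 15.8, 8.9 and 9.8 in SS-TAMs, against 6.9, 7.5 and 7.1 in GCMs (log2 fold change 0.64, adjusted p = 0.14 from limma). Gulp1, the gene of an adaptor of the stabilins, was at 3.8 on every array.

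Genes with a profile over the 6 arrays most like that of Msr1 were the lysosomal genes Gla, Lgmn and Atp6v0a1 (Pearson r of log2 intensity 0.999, 0.999 and 0.999). For Cd36 they were Atp7a, Gas6 and Gabbr1 (0.998, 0.997 and 0.997), for Cd93 Fads1, Ap1b1 and 2310081J21Rik (0.999, 0.997 and 0.997), and for Scarf1 Cpsf4l, Kctd17 and Pbxip1 (0.997, 0.994 and 0.992). These values rest on 6 arrays in 2 groups that stand apart, and 535 genes had an r over 0.95 with Msr1, so they describe the group difference and its spread and no more.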

How the data were processed

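The authors deposited intensities on a linear scale, rounded to 1 decimal (2.4 to 2544), of amplified cDNA on Affymetrix Mouse Gene 1.0 arrays. Their processing notes name RMA, which normalizes and summarizes probe intensities, and limma, without versions. No detection calls were used. Precision is limited by the number of arrays.

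Probe sets naming exactly 1 gene (21789 of 28944) were kept, with symbols updated by gene ID (21698 matched). For 999 genes with several probe sets, the one with the highest mean was used. Groups were compared on log2 intensities by the moderated two-sided test of limma (version 3.58.1, under R 4.3.3) without covariates. P-values were adjusted over all 19938 genes by Benjamini-Hochberg, and 0.05 was the limit for a call. The procedure was also run on simulated arrays with independent values and the same spread in both groups. The data differ from this, since 1863 genes had equal values on all GCM arrays and 295 on all SS-TAM arrays. That run is therefore not used as support here. The smallest p that exact permutation allows here is 0.1. Means and SDs were taken on linear intensities.

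Genes, lists and alternatives were chosen with earlier results of these data known. Beyond the 10 genes, the called genes of the receptor and partner lists and some called genes of the marker lists are named, and for each called receptor the 3 genes of highest r. Further marker genes (Pecam1, Adipoq, Cd209b) and list genes that did not pass were named after their values were seen. Some listed genes were not analysed here. Alternatives covered scaling, dim probe sets (mean intensity up to 6.35), probe set choice, a log2 offset of 4, an intensity trend, array weights, a replicate block and each array left out.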

Additional observations from a re-analysis of the deposited data

How the results depend on the processing

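Of 149 values of the 10 genes under the alternatives, 115 kept their direction and their side of the threshold, 15 lost and 5 gained a call, and 14 changed sign. Scaling to the core macrophage markers turned Scarb1 to -1.37, Scarf1 to -0.98, Stab1 to -1.32, Stab2 to -1.54, Colec12 to -0.47 and Olr1 to -1.51 on the log2 scale, since this scaling moves every gene by -1.54. The other sign changes were in Stab2 and Olr1, both within 0.07 of 0. Stab2 was at -0.056 after median centring, -0.066 after quantile normalization, -0.0009 with array weights, -0.022 without SS-TAM replicate 2 and -0.0057 without GCM replicate 1 or GCM replicate 2, in a range of -0.022 to 0.0275 with 1 array left out. Olr1 was at -0.025 after median centring and -0.013 without SS-TAM replicate 2, in a range of -0.013 to 0.0612.

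Under the macrophage scaling, counts lower in SS-TAMs were 7 of the 10 receptors, 16 of the 19 other receptor genes, 11 of the 15 partner genes and 19673 of all genes, with 102 of all genes higher. With 1 array left out, 1 to 4 of the 10 receptors were higher, 3 to 4 of the other receptor genes, 2 to 5 of the partner genes, and 271 to 1157 of all genes, with 404 to 801 of all genes lower. Fewer arrays in the fit leave fewer residual degrees of freedom. The same replicate numbers occur in both groups, but same-numbered arrays hardly deviated together (correlations 0.092, 0.084 and 0.019). Whether same-numbered arrays were handled together was not tested. With a replicate block, 3 of the 10 receptors were higher, Scarf1 losing its call (adjusted p = 0.083 from limma), and 610 of all genes were higher. Dim levels limit what can be said of Olr1, Marco and the GCM levels of Msr1 and Cd93. The GCM levels of Scarf1 (7.6, 6.2 and 8.1) were also close to the array medians.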
